A study of Mus musculus with 6 samples.

Results

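Cytosolic ribosomal protein genes encode the proteins that, with ribosomal RNA, build the large and the small subunit of the ribosome in the cytosol. They were chosen by symbol: all names made of Rpl or Rps and a digit, together with Rplp0, Rplp1, Rplp2 and Rpsa, leaving out symbols with -ps or -rs and the S6 kinases. Of the 37991 genes in the deposited count tables, 86 met this rule, and 163 genes with -ps or -rs symbols were left out. By symbol, the 86 comprise 52 genes of the large subunit, 33 of the small subunit and Rps19bp1. The last encodes a protein that binds Rps19 and is no part of the ribosome. RNA came from the dorsal telencephalon of CD1 mouse embryos at E13.5, where 3 embryos had been injected into the brain ventricles with 100 ng of FGF2, a growth factor that signals through FGF receptors (FGF2 6, 7 and 8), and 3 with the vehicle, PBS with 0.1% BSA (vehicle 7, 8 and 9). No genetic change is named in the labels for either group, and neither the labels nor the files give the interval between injection and collection. The RNA was extracted from formalin-fixed frozen sections taken in front of the hippocampus and sequenced in read pairs.

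Ribosomal proteins are made in near-equal amounts, since each ribosome holds a single copy of nearly all of them, and their messenger RNAs are among the most abundant in growing cells. Most of these messages begin with a stretch of pyrimidines (the TOP element), through which growth factor signalling by mTOR controls their translation. Their short, abundant messages have been copied back into the mouse genome many times as intronless processed pseudogenes.

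The start of the messages is shown because the pyrimidine stretch is the feature these messages are known for. RefSeq promoter windows of GRCm38.p6 (250 bases before to 50 after each annotated start) were matched by symbol for 63 of the 85 ribosomal protein genes. Each line gives 10 bases before and 20 bases from the annotated start on (the start with the longest run, where a gene has several), on the gene's own strand, with the longest run of C and T in capitals.
Rpl34, chr3:130730318-130730347, minus strand: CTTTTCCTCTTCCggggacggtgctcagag
Rps6, chr4:86857348-86857377, minus strand: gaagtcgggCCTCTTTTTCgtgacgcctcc
Rpl38, chr11:114668570-114668599, plus strand: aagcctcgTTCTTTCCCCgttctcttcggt
Rpl28, chr7:4792955-4792984, plus strand: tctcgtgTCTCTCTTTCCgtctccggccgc
Rps26, chr10:128626487-128626516, minus strand: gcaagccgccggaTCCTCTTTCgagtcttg
Rpl13, chr8:123102340-123102369, plus strand: TTTCgcctgattttgattggcgtttgagat
Rpl34, Rps6, Rpl38, Rpl28 and Rps26 carry runs of 9 to 13 pyrimidines in this window, and Rpl13 has none longer than 4. Not every run begins at the annotated start: that of Rpl34 begins 10 bases before it and that of Rps26 at base 4. The printed genes are examples, and most of the matched genes had no run of 8 or more. The length of 8 was a choice made here and shorter runs were not counted, so the share below is not one of TOP elements. A run of at least 8 pyrimidines stood in this 30-base window in 24 of the 63 genes (38.1%), against 13.0% of the 27025 gene symbols with a window. The letters CTTTCC, searched on the gene strand within 50 bases of the start, were present in 20 of 63 (31.7%, against 5.43% of all symbols), in 17 of 40 large-subunit and 3 of 23 small-subunit genes. The longer CTCTTTCC, which contains CTTTCC, was found in 7 of 63 (11.1%, against 0.529%). CCGGAAG on either strand, the core letters of ETS-type sites, was found in the whole window of 25 of 63 genes (39.7%, against 9.93%). The E-box CACGTG, which reads the same on both strands, was present in 6 of 63 (9.52%, against 8.09%). The median log2 fold change of the counts was 0.33 over the 24 genes with a run of 8 pyrimidines and 0.23 over the 37 tested genes without one, which is a description of these windows only.

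The libraries held 64631136 to 81532334 counted reads in the FGF2 embryos and 61489462 to 68101511 in the vehicle embryos. Vehicle 9 stood apart: all its non-zero counts were even, against 51.0% to 51.9% in the other libraries, and its reads covered a median of 30.1% of the bases of a gene's span, against 50.7% to 68.4% elsewhere. Emx1, a defining marker of the dorsal telencephalon, was present in all libraries, with 96.0, 96.7 and 109 CPM (reads scaled to a common library size) in FGF2 and 186, 185 and 182 CPM in vehicle embryos. Of 12 markers of the dorsal telencephalon 4 fell and none rose. Ventral telencephalon markers rose in 14 of 18 cases, with summed levels of 775 to 1024 CPM in FGF2 and 107 to 234 CPM in vehicle embryos. Choroid plexus markers rose in 8 of 10 cases and fell in 1, with summed levels of 179 to 498 CPM in FGF2 and 22.7 to 24.5 CPM in vehicle embryos. Of 12 red blood cell markers none was called, although all 12 had a log2 fold change above 0 (median 0.54), with sums of 2633 to 4681 CPM in FGF2 and 2350 to 3295 CPM in vehicle embryos. Of 10 markers of the meninges 2 rose and 2 fell, with sums of 2508 to 2799 CPM in FGF2 and 3689 to 4221 CPM in vehicle embryos. Of 8 markers of microglia 4 rose, with sums of 108 to 132 CPM in FGF2 and 69.3 to 82.99 CPM in vehicle embryos. Of 8 markers of endothelium none was called, with sums of 223 to 250.4 CPM in FGF2 and 206 to 234 CPM in vehicle embryos. No marker in these lists was at 0 in all libraries. These marker levels moved with the comparison below, and their part in it was not tested.

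The first question was whether ribosomal protein messages differ between FGF2 and vehicle embryos. Their levels were mostly a little higher in the FGF2 embryos, by a median of 0.28 on the log2 scale, and a single gene, Rpl34, rose past the threshold. Counts of reads over each gene's span were tested with edgeR's quasi-likelihood test, and 84 of the 86 genes passed the filter on low counts. Of these 84, 1 rose and 0 fell at an adjusted p of 0.05, where 2.68% of the 21983 genes tested rose and 0.951% fell. At an unadjusted p under 0.05, 28 were higher and 0 lower, beside 11.2% and 8.13% of all genes. The log2 fold change was above 0 for 80 of 84 (95.2%), beside 51.4% of all genes, and the groups did not overlap in 36 genes, all higher in FGF2 embryos (42.9%, beside 14.6% of all genes). Rps19bp1, with a log2 fold change of 0.21, is counted in the 84, the 28 and the 36. The median log2 fold change was 0.28 (quartiles 0.16 and 0.40), against 0.01 over all genes tested. In these bulk samples, a change in the share of cells that express a gene and a change in its RNA per cell cannot be told apart. The shift did not rest on vehicle 9: without it, 81 of 85 genes tested were above 0 (51.5% of all genes) and the median was 0.24. It was smallest without FGF2 8, with 75 of 85 above 0 (51.1% of all genes) and a median of 0.20. With vehicle 9 left aside, all FGF2 embryos lay above vehicle 7 and 8 in 55 of 84 genes (20.2% of all genes).

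The number of called genes depended on the tool. DESeq2 called 7 of 84 higher and 0 lower, where it called 6.11% of all genes higher and 3.64% lower. The 7 included Rpl34, Rpl12, Rpl11 and Rpl32. Voom with sample quality weights, which gave FGF2 8 a weight of 0.232, called 3 higher (5.79% of all genes). Without FGF2 8, edgeR called 2 in counts (4.31% of all genes) and limma 8 in RPKM (4.57% of all symbols), all higher in FGF2 embryos. With the embryo number as a block, 0 were called in counts (2.53% of all genes were called higher) and 0 in RPKM (2.54% of all symbols). Only embryos 7 and 8 of each group share a number, so the blocked contrast rests on these embryos. Without a filter on low RPKM, limma called 0 (0.909% of all symbols).

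**Figure D1:**
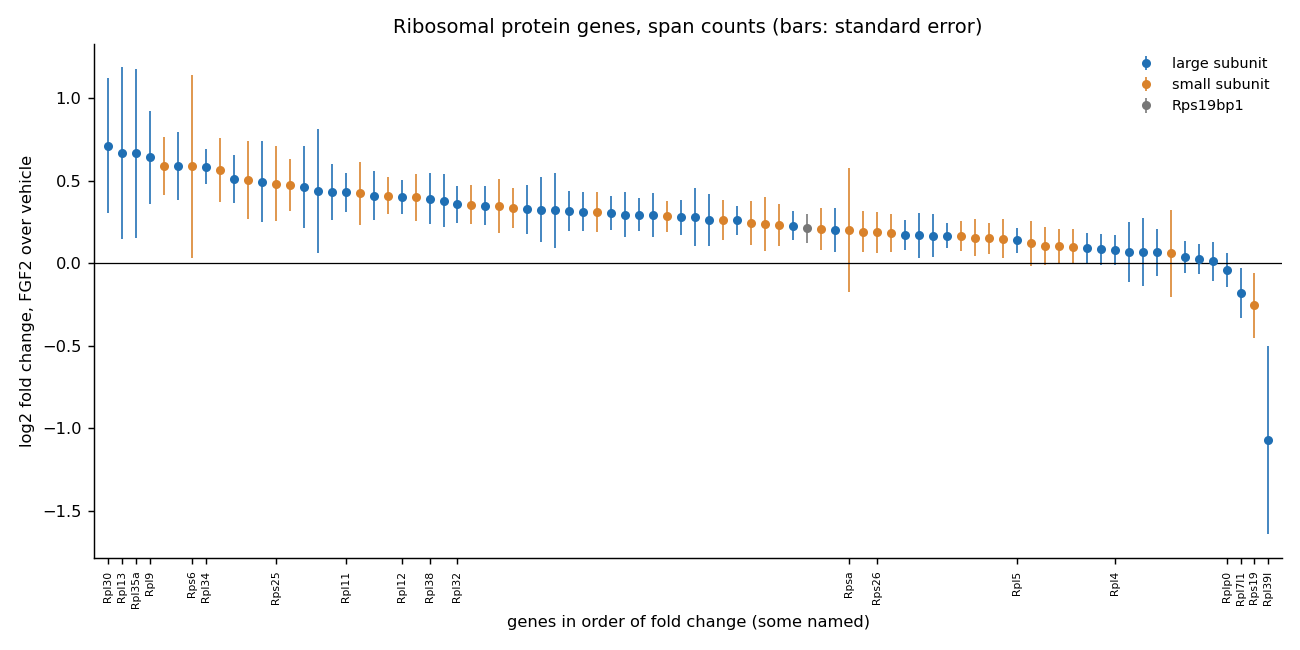
Log2 fold change of the span counts, FGF2 over vehicle (y axis), for the 84 genes that passed the filter, Rps19bp1 among them. They stand in order of size (x axis, some of them named). Points are coloured by subunit, with Rps19bp1 apart, and bars show the standard error of the edgeR fit. All but 4 points lie above 0, the 4 genes below 0 are Rplp0, Rpl7l1, Rps19 and Rpl39l, and wide bars belong to Rpl39l, Rps6, Rpl13, Rpl35a, Rpl30 and Rpsa.

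Rpl34 encodes a protein of the large subunit and lies on chromosome 3 (130429749 to 130433316, NCBIM37), overlapping no other listed gene. It stood at 48.7, 54.1 and 58.2 CPM in FGF2 6, 7 and 8, against 38.2, 37.3 and 31.8 CPM in vehicle 7, 8 and 9. The groups did not overlap. The log2 fold change was 0.59 (SE 0.11, adjusted p = 0.0286 with edgeR). In RPKM, which scales reads by the length of the gene model and by depth, it stood at 40.4, 44.8 and 48.0 in FGF2 and 30.2, 29.5 and 25.6 in vehicle embryos (44.4 ± 3.81 and 28.5 ± 2.46, SD, n = 3 each). On the log2(RPKM + 1) scale the difference was 0.62 (SE 0.10, adjusted p = 0.0250 with limma). The call did not hold in every subset of embryos: leaving out each in turn kept the log2 fold change of the counts at 0.51 to 0.65, with adjusted p from edgeR of 0.0166 to 0.113, and the call was lost without FGF2 7 or any vehicle embryo. In RPKM it was lost without any embryo other than FGF2 8 (adjusted p = 0.0192 to 0.114 with limma). Near-identical pseudogenes of Rpl34 numbered 10 and together held 4.40 to 7.96 reads for each of its own, so its value is uncertain.

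Levels were compared between genes in RPKM, since it is per length. The 3 genes above 1000 RPKM on average all encode proteins of the small subunit. Rps26, whose protein contacts the messenger RNA near the exit of its channel, had 1424, 1684 and 1867 RPKM in FGF2 and 1394, 1318 and 1477 RPKM in vehicle embryos. Rps12 had 1154, 1452 and 1418 RPKM in FGF2 and 1047, 992 and 1227 RPKM in vehicle embryos. Rps15, a protein of the decoding site, had a mean of 1004 RPKM over the 6 embryos. FGF2 6 was inside the vehicle range for both Rps26 and Rps12, so their groups overlapped. Another 27 genes had 100 to 1000 RPKM, 36 had 10 to 100, 17 had 1 to 10 and 3 were below 1. The median log2 fold change of the counts was 0.43 in the genes of 1 to 10 RPKM and 0.19 in those above 1000 RPKM, while in RPKM these medians were 0.30 and 0.24. The large-subunit genes of highest level were Rpl8, next to the peptidyl transferase centre, at 872 RPKM, Rpl32 at 859 and Rpl4, which lines the exit tunnel, at 853 RPKM. The log2 fold change of the 6 most abundant genes lay between 0.08 (Rpl4) and 0.36 (Rpl32). Rpl32 had 394, 489.8 and 516 CPM in FGF2 and 361, 368 and 362 CPM in vehicle embryos. Its groups did not overlap, and its log2 fold change of 0.36 (SE 0.11) missed the threshold (adjusted p = 0.133 with edgeR).

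Large and small subunit were set side by side in both units. The summed RPKM of the large subunit was 8376, 9548 and 10112 in FGF2 6, 7 and 8, and 7557, 7434 and 8492 in vehicle 7, 8 and 9. That of the small subunit was 8059, 9551 and 10228 in FGF2 and 7558, 7240 and 8348 in vehicle embryos. Both sums were highest in FGF2 8 and lowest in vehicle 8, and FGF2 6 lay below vehicle 9 in each, so the groups overlapped. The ratio of the large to the small subunit was 1.04, 0.9997 and 0.989 in FGF2 and 0.9999, 1.03 and 1.02 in vehicle embryos, with means of 1.01 ± 0.0267 and 1.01 ± 0.0137 (SD, n = 3 each). Their difference was smaller than the spread between embryos. The summed RPKM over both subunits was 18625 ± 1995 in FGF2 and 15543 ± 1144 in vehicle embryos, a ratio of 1.20. As a share of all RPKM it was 3.92%, 4.30% and 4.40% in FGF2 and 3.73%, 3.60% and 4.02% in vehicle embryos. The median log2 fold change of the counts was 0.30 over the 50 large-subunit genes tested and 0.24 over the 33 small-subunit genes, and in RPKM it was 0.26 over both. No test of these summed values was made, since the genes were chosen with earlier results of these data known.

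**Figure D2:**
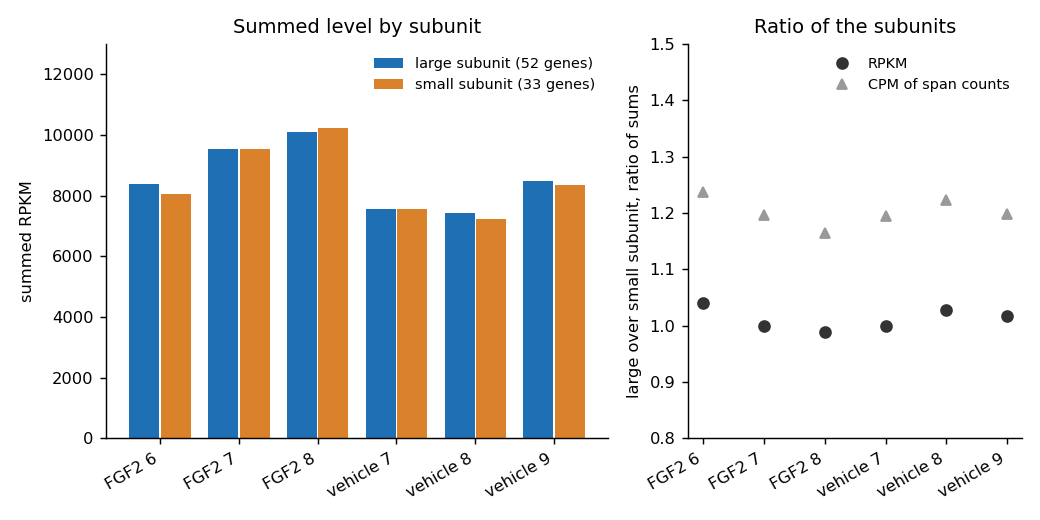
Left, summed RPKM of the 52 large-subunit and 33 small-subunit genes (y axis) in each embryo (x axis); right, the ratio of the large to the small sum per embryo (unitless, axis from 0.8), in RPKM (circles) and in CPM of span counts (triangles). The RPKM ratio stays between 0.989 and 1.04 and the CPM ratio between 1.16 and 1.24, with the embryos of both groups intermingled.

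Among the parts of the ribosome, the stalk that recruits elongation factors had 4 genes tested, of which none passed the threshold. Rplp0, the stalk's base protein, had 112, 128 and 142 CPM in FGF2 and 126, 125 and 142 CPM in vehicle embryos, a log2 fold change of -0.04 (SE 0.10), which was above 0 without FGF2 6 or vehicle 9. Its groups overlapped throughout. Rplp1, one of the stalk's acidic proteins, had 106, 127 and 139.8 CPM in FGF2 and 97.1, 97.4 and 161 CPM in vehicle embryos, where vehicle 9 was the highest of the 6. Rplp2, its partner, had 24.3, 25.9 and 25.4 CPM in FGF2 and 24.0, 22.6 and 13.6 CPM in vehicle embryos, where vehicle 9 was the lowest. Thus the 2 partners stood at opposite ends in vehicle 9. Rpl12, which anchors the stalk, had 44.5, 48.0 and 51.7 CPM in FGF2 and 34.3, 33.8 and 41.0 CPM in vehicle embryos, without overlap (log2 fold change 0.40, SE 0.11, adjusted p = 0.0887 with edgeR).

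Rpl5 and Rpl11 bind the 5S ribosomal RNA and, when ribosome assembly fails, inhibit Mdm2, the regulator of p53. Rpl11 had 17.2, 17.8 and 19.1 CPM in FGF2 and 14.4, 14.0 and 11.7 CPM in vehicle embryos. Its groups did not overlap, and its log2 fold change was 0.43 (SE 0.12, adjusted p = 0.0989 with edgeR). Rpl5 had 119, 134 and 125 CPM in FGF2 and 115, 116 and 113 CPM in vehicle embryos, without overlap and with a log2 fold change of 0.14 (SE 0.07). Of 14 genes of the p53 response, 2 rose (Cdkn1a, a cell cycle inhibitor, by 1.16, and Pmaip1, which promotes apoptosis, by 2.48 on the log2 scale) and Sesn1 fell by 0.50, with edgeR.

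Of 8 proteins at the exit tunnel, all had a log2 fold change above 0 (median 0.29) and none passed the threshold. The whole family was close to this, with 95.2% above 0 (51.4% of all genes) and a median of 0.28. Rpl39, a small protein of the tunnel wall, had 9.95, 11.0 and 10.2 CPM in FGF2 and 8.28, 7.64 and 4.79 CPM in vehicle embryos, without overlap (log2 fold change 0.59, SE 0.21, adjusted p = 0.175 with edgeR). Rpl4 had 1095, 1191 and 1194 CPM in FGF2 and 1049, 1076 and 1166 CPM in vehicle embryos. These groups overlapped, and the log2 fold change was 0.08 (SE 0.09). The 7 proteins along the path of the messenger RNA in the small subunit had a median of 0.19 and the 4 of its decoding site one of 0.23, with none past the threshold.

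Rps25, needed for some cap-independent translation, had 62.0, 95.9 and 99.1 CPM in FGF2 and 69.9, 69.7 and 44.2 CPM in vehicle embryos. FGF2 6 lay below vehicle 7 and 8 here, and the log2 fold change was 0.48 (SE 0.23, adjusted p = 0.301 with edgeR), or 0.29 without vehicle 9. Rps3, at the entry of the messenger RNA channel, had a log2 fold change of 0.10, Rps27a, made as a fusion with ubiquitin, one of 0.16, and Rps14, whose loss of a copy underlies the anaemia of the human 5q- syndrome, one of 0.23. None of these small-subunit genes was called.

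Of 20 genes mutated in Diamond-Blackfan anaemia, a human failure of red cell production, 19 had a log2 fold change above 0 (median 0.32), the groups did not overlap in 11, and none passed the threshold. These counts were close to those of the whole family, where 95.2% of the genes were above 0 and 42.9% did not overlap, beside 51.4% and 14.6% of all genes. Rps19, the gene most often mutated in that disease, was the exception. It had 90.3, 67.3 and 84.7 CPM in FGF2 and 82.6, 78.9 and 127 CPM in vehicle embryos, with vehicle 9 above all others and the other 5 intermingled. Its log2 fold change was -0.25 (SE 0.20), and -0.00 without vehicle 9. Rpl38, whose loss disturbs the mouse axial skeleton, had 223, 257 and 338 CPM in FGF2 and 194, 199 and 230.5 CPM in vehicle embryos, so FGF2 6 lay below vehicle 9 (log2 fold change 0.39, SE 0.16, adjusted p = 0.222 with edgeR). Without FGF2 8 it was 0.21.

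The paralogs, genes related in sequence to another gene of the family, were low or high by gene. Rpl10l, which takes the place of Rpl10 in male germ cells, had 0 reads in all 6 embryos, and Rpl3l, a form of heart and skeletal muscle, had 12, 29 and 11 reads in FGF2 and 4, 5 and 4 in vehicle embryos; neither passed the filter. Rpl39l had 9, 27 and 30 reads in FGF2 and 56, 25 and 44 in vehicle embryos, with FGF2 7 and 8 inside the vehicle range (log2 fold change -1.07, SE 0.57, adjusted p = 0.357 with edgeR). Rpl22l1, the paralog of Rpl22, stood at 144, 179.6 and 149 RPKM in FGF2 and 120.2, 102 and 133 RPKM in vehicle embryos, without overlap. Rpl22 itself had 66.5, 74.9 and 70.6 RPKM in FGF2 and 63.7, 58.0 and 69.5 RPKM in vehicle embryos. In RPKM the paralog thus had the higher level in each embryo. In CPM, which is not per length, Rpl22 was the higher, at 173 to 208 CPM against 51.5 to 83.7 CPM for Rpl22l1. The log2 fold change of the counts was 0.35 (SE 0.12) for Rpl22l1 and 0.08 (SE 0.09) for Rpl22, with adjusted p of 0.161 and 0.661 from edgeR. Rps27l, a paralog of Rps27, had a log2 fold change of 0.12 and Rpl7l1, a paralog of Rpl7, one of -0.18.

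Most of the largest log2 fold changes came with wide errors. Rpl30 stood first at 0.71 (SE 0.41), and Rpl13 at 0.67 (SE 0.52), Rpl35a at 0.67 (SE 0.51), Rpl9 at 0.64 (SE 0.28), Rpl39 and Rps6 were also among the largest, with adjusted p from edgeR of 0.175 (Rpl39) to 0.615 (Rps6). Rps6, the target of the S6 kinases, had 33.5, 37.1 and 28.7 CPM in FGF2 and 30.5, 29.6 and 5.90 CPM in vehicle embryos. FGF2 8 lay below vehicle 7 and 8, and vehicle 9 lay far below all others. Rpl13 had 57.9, 66.1 and 71.6 CPM in FGF2 and 57.0, 53.8 and 12.4 CPM in vehicle embryos. Rpl30, which in budding yeast binds and regulates its own transcript, had 59.3, 69.9 and 64.5 CPM in FGF2 and 54.0, 48.3 and 15.8 CPM in vehicle embryos. In both genes vehicle 7 and 8 lay just below the FGF2 embryos and vehicle 9 far below them all. Without vehicle 9 the log2 fold changes were 0.14 for Rps6, 0.23 for Rpl13 and 0.23 for Rpl35a. They were 0.33 for Rpl30, 0.34 for Rpl9 and 0.38 for Rpl39.

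**Figure D3:**
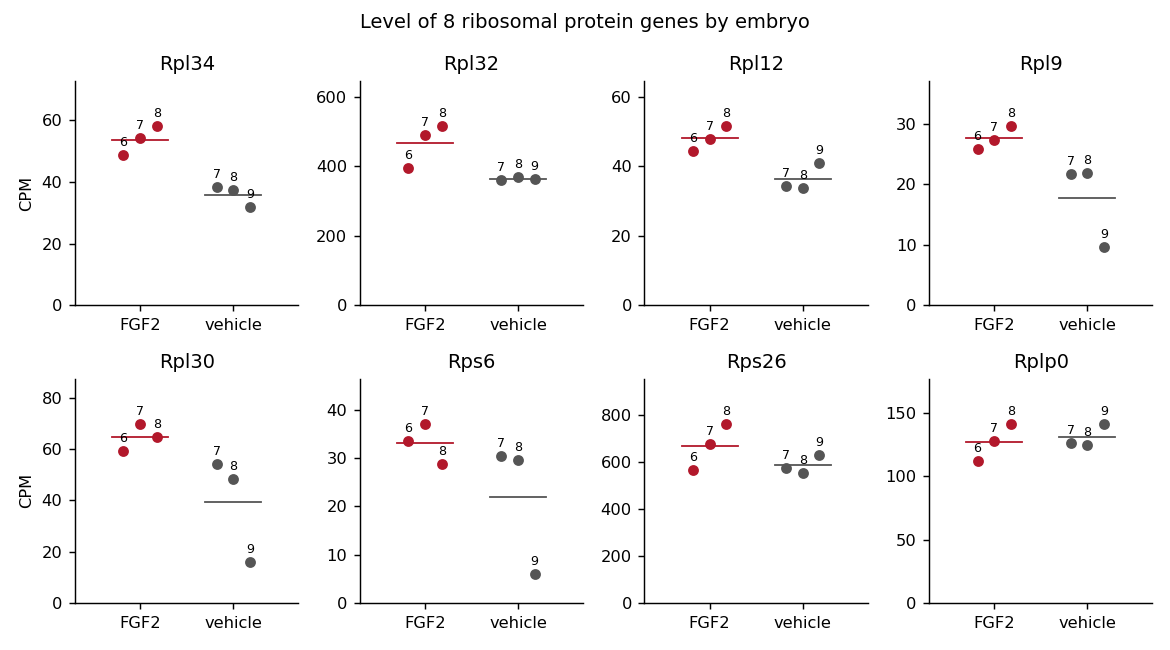
CPM (y axis, from 0) in each FGF2 embryo (red, left) and each vehicle embryo (grey, right) for 8 ribosomal protein genes; numbers beside the points are the embryo numbers and lines are group means. Rpl34 and Rpl32 separate the groups with little spread among vehicle embryos, while in Rpl9, Rpl30 and Rps6 vehicle 9 lies far below vehicle 7 and 8.

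In 8 of the 84 genes (9.52%, beside 5.10% of all genes), the CPM of vehicle 9 lay below the mean of vehicle 7 and 8 by a factor of more than 2. They were Rps6, Rpl13, Rpl35a, Rpl30, Rpsa, Rpl29, Rpl9 and Rpl18, a group singled out after its values were seen, with log2 ratios of -2.35 (Rps6) to -1.01 (Rpl18). Over 83 genes, Rpl39l being left out for its low counts, the level in vehicle 9 relative to vehicle 7 and 8 and the log2 fold change had a Spearman rho of -0.65. These measures share the value of vehicle 9, and the correlation is a description across genes of the same libraries.

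Such copies were counted by comparing the coding sequence of 85 genes with the pseudogenes of GENCODE vM21, at 90% identity or more over at least 80% of the coding sequence. Copies within this limit are the ones called near-identical here. There were 938 copies in all, a median of 8 for each gene, and 534 had a row of their own in the count tables. The coding start of 3 genes is printed beside that of the most-read copy in a span free of other genes, as examples of closely matching starts. Coordinates are those of the deposited tables (NCBIM37) and sequences are from GENCODE vM21 transcripts, with differing bases in capitals.
Rps6, chr4:86500564-86503316: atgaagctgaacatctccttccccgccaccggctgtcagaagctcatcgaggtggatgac
Gm16409, chr14:74196308-74197105: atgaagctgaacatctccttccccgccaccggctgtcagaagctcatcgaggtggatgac
Rpl13, chr8:125626250-125629144: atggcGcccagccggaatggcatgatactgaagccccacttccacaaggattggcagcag
Rpl13-ps3, chr14:59512343-59512966: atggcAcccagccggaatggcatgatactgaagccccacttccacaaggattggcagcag
Rpl34, chr3:130429749-130433316: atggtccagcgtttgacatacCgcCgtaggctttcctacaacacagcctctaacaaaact
Gm6404, chr13:116943973-116944380: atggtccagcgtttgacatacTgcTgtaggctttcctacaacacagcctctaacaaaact
Over these 60 bases Rps6 and its copy did not differ, Rpl13 and its copy differed at 1 base and Rpl34 and its copy at 2. Other pairs can differ more, as Rpl9 and its most-read copy did at 6 of 60 bases. Over the whole match, identity was 98.7% for the copy of Rps6, 96.5% for that of Rpl13 and 97.2% for that of Rpl34.

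The row of Gm16409 held 36083, 35136 and 31091 reads in FGF2 and 23572, 27166 and 27992 reads in vehicle embryos, while Rps6 itself held 2816, 2632 and 1846 reads in FGF2 and 1864, 1979 and 372 reads in vehicle embryos. In the row of the copy vehicle 9 did not stand below the other vehicle embryos. For Rpl34, the row of Gm6404 held 13816, 14517 and 14206 reads in FGF2 and 8691, 9220 and 12720 reads in vehicle embryos, against 4095, 3840 and 3740 own reads in FGF2 and 2334, 2495 and 2002 own reads in vehicle embryos. In 43 genes the copies together held more reads than the gene itself in every embryo, and in 31 genes the copies whose spans overlap no other gene did so on their own. These 43 genes had a median of 18.1 RPKM, against 279 RPKM in the other 41. All 8 genes that were low in vehicle 9 were among the 43, and 6 of them were among the 31. The median log2 fold change of the counts was 0.38 over the 43 genes and 0.20 over the others. In RPKM these medians were closer, at 0.27 and 0.24. Reads from such near-identical sequence could be counted at either place, so the levels and fold changes of the 43 are uncertain.

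**Figure D4:**
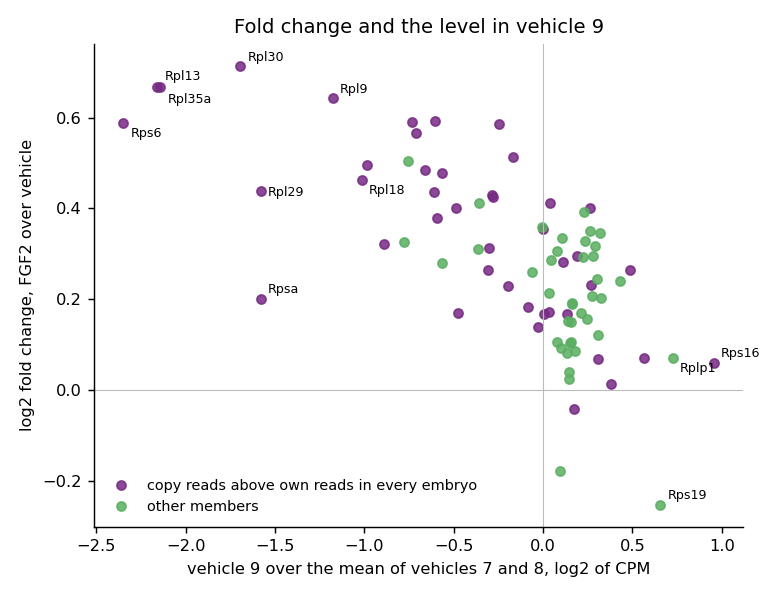
Log2 fold change of the counts, FGF2 over vehicle (y axis), against the log2 ratio of CPM in vehicle 9 to the mean of vehicle 7 and 8 (x axis). Points are 83 genes, all that passed the filter but Rpl39l, with Rps19bp1 among them. Purple points have more reads in near-identical pseudogenes than of their own in every embryo, and green points are the other genes. The genes furthest left, Rps6, Rpl13, Rpl35a and Rpl30, are purple and lie near the top (Spearman rho -0.65 over all points).

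When the reads of all copies were added to their gene, an alternative chosen after seeing the data, the shift became narrower. The log2 fold change was again above 0 for 80 of 84 genes (51.6% of all genes), with a median of 0.22 (quartiles 0.13 and 0.30). With edgeR 0 passed the threshold, where 2.88% of the 21665 genes tested rose and 0.983% fell. At an unadjusted p under 0.05, 19 were higher (11.4% of all genes). Rps6 then had a log2 fold change of 0.21 (SE 0.09), Rpl13 one of 0.10 (SE 0.10), Rpl30 one of 0.24 (SE 0.12) and Rpl34 one of 0.36 (SE 0.14, adjusted p = 0.213 with edgeR). Genes together with copies took 3.82%, 4.34% and 4.50% of all reads in FGF2 and 3.50%, 3.44% and 3.92% in vehicle embryos, so FGF2 6 lay below vehicle 9 by this measure too. These shares, and the fold changes with copies added, include reads over spans that copies share with other genes. Of the copy reads, only 57.9% to 58.7% lay in rows that overlap no other listed gene.

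The deposited RPKM, tested with limma on log2(RPKM + 1), gave values close to those of the counts for most genes. Of 83 genes that passed the filter, 1 rose (Rpl34) and 0 fell, beside 2.29% and 0.820% of the 13894 symbols tested, and at an unadjusted p under 0.05 there were 31 higher and 0 lower (12.7% and 7.02% of all symbols). The difference was above 0 for 76 of 83 (53.0% of all symbols), with a median of 0.26 against 0.01 over all symbols. The groups did not overlap in 35 genes, all higher in FGF2 embryos (16.6% of all symbols). Counts and RPKM had the same sign in 79 of 83 genes, with a median absolute difference of 0.05 and a Pearson r of 0.79 across genes, which come from the same reads.

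The 2 units were also compared by the ratio of reads per kilobase of the span to the RPKM of the gene model. This ratio had a median of 0.49 in FGF2 and 0.48 in vehicle embryos and exceeded 1 in both groups in 10 genes. In all 10 the log2 fold change was higher in counts than in RPKM, by 0.05 to 0.56 (median 0.24), against 18 of the other 73 (median difference -0.04). Vehicle 9 moved with this split: its median log2 ratio to vehicle 7 and 8 was -0.60 in CPM and 0.13 in RPKM over the 10 genes, against 0.11 and 0.13 over the other 73, and its part in the split was not tested. Rpsa, also known as the laminin receptor precursor, differed most. It had 32.2, 33.9 and 38.7 CPM in FGF2 and 37.6, 40.4 and 13.0 CPM in vehicle embryos, but 2.65, 3.04 and 3.53 RPKM in FGF2 and 3.58, 3.23 and 6.24 RPKM in vehicle embryos. Vehicle 9 was thus the lowest embryo in one unit and the highest in the other, and the log2 differences were 0.20 in counts and -0.36 in RPKM. Rpl28 had 20.7, 22.7 and 22.7 RPKM in FGF2 and 22.3, 20.4 and 23.4 RPKM in vehicle embryos, a difference of -0.00 (SE 0.08), against 0.32 (SE 0.23) in counts, which became 0.08 without vehicle 9. Rps6, whose ratio was below 1 in both groups, parted the other way, with 0.59 in counts and 1.003 in RPKM, where vehicle 9 stood at 1.60 RPKM and the other vehicle embryos at 15.6 and 15.1. None of these differences between FGF2 and vehicle embryos passed the threshold in either unit.

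**Figure D5:**
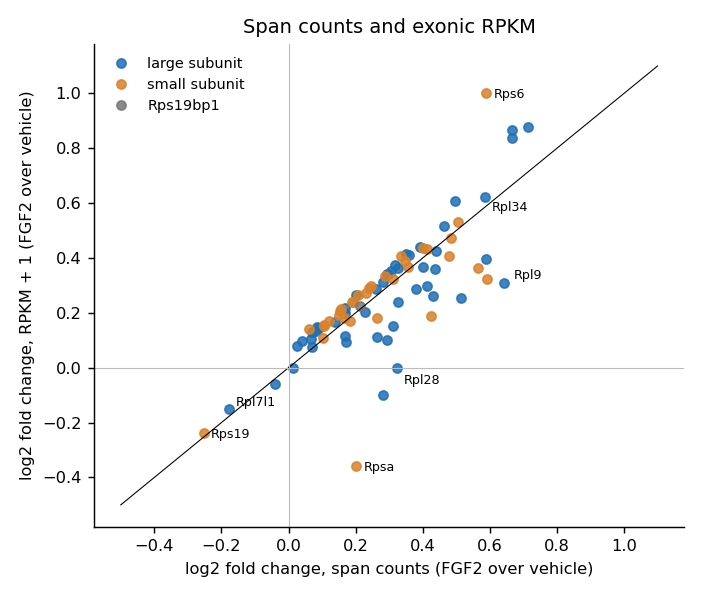
Log2 fold change, FGF2 over vehicle, from span counts (x axis) and from log2(RPKM + 1) (y axis) for 83 genes, Rps19bp1 among them. Points are coloured by subunit, with Rps19bp1 apart, and the line marks equal values. Most points lie close to the line, Rpsa, Rpl28 and Rpl9 lie below it and Rps6 above it.

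Other genes of translation were described by the same edgeR fit. Of 76 genes of the mitochondrial ribosome, 1 rose (Mrps6, by 0.41 on the log2 scale) and 0 fell, with a median of 0.09. Of 58 genes with Eif symbols, 0 rose and 1 fell, and the median was -0.06. The gene that fell, Eif2c1 (by 0.43), encodes an Argonaute protein of small RNA silencing and no initiation factor. Of 6 elongation factor genes none passed the threshold (median 0.02), nor did any of 45 genes of ribosome biogenesis (-0.04), 21 of the mTOR and S6 kinase pathway (-0.06), 10 of the Myc family (-0.13) or 20 other genes with TOP messages (0.02). Fau, which encodes a ribosomal protein fused to a ubiquitin-like protein and lies outside the symbol rule, had a log2 fold change of 0.51 (SE 0.19) and was not called. The 6 noncoding hosts of small nucleolar RNAs, none of them called, had a median of 0.31, with Snhg1 at 75.4, 80.1 and 73.1 CPM in FGF2 and 60.7, 60.9 and 66.0 CPM in vehicle embryos, without overlap.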

How the data were processed

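Gene counts, coverage and RPKM of 6 embryos were used, each embryo as 1 library. The submitters' processing notes name TopHat2 (2.0.9) with Bowtie2 (2.1.0.0), CASAVA (1.8), bedtools (2.12.0) and the build NCBIM37 (mm9), in no stated role, and the treatment of multiply mapped reads and of strand is not stated in them. The deposited counts are whole numbers of alignments over each gene's span, introns included, and the deposited fraction gives the covered share of that span. The deposited RPKM are the authors' values per symbol. In R 4.3.3, counts were tested with edgeR 4.0.16 (filterByExpr, TMM, robust quasi-likelihood fit, no covariate) and log2(RPKM + 1), for symbols with at least 1 RPKM in 3 libraries, with limma 3.58.1. Both ran over all genes and all 6 embryos with Benjamini-Hochberg adjustment. CPM use TMM library sizes. DESeq2 was version 1.42.0. The fits were tested on data simulated with larger changes than the shift described here, so that test does not bear on it. An exact permutation of 3 against 3 embryos reaches p = 0.1 at best, two-sided.

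Members and lists were chosen with earlier results of these data known. Some single-gene results are not reported here. Named members were the called ones, those with the largest or smallest log2 fold change, level or difference between units, the paralogs and a set with known roles. Embryo numbers 7 and 8 occur in both groups, and deviations of same-numbered embryos correlated at -0.05 and -0.02. The embryos were treated as unpaired, although so few same-numbered pairs cannot exclude a pairing. Alternatives covered scaling, filters, tools, the embryo number as a block, overlapping and sex-linked genes and each embryo in turn. The pseudogene copies and a run without Rps19bp1 were added after seeing the data.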

Additional observations from a re-analysis of the deposited data

How the results depend on the processing

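Settings that changed a count of called genes are given first. With DESeq2 7 genes rose (6.11% of all genes), among them Rpl34, Rpl12, Rpl11 and Rpl32, and with voom and sample quality weights 3 rose (5.79%). With pseudogene copies added 0 rose (2.88% of all genes). The replicate block, with the embryo number of the labels as a block, left 0 called in counts and 0 in RPKM (2.53% and 2.54% of all genes rose) although the median log2 fold changes were 0.32 and 0.35. FGF2 6 and vehicle 9 share no number with the other group and do not inform this contrast, which rests on embryos 7 and 8. The small-subunit median became 0.35 in counts. Without a filter on low RPKM 0 rose in RPKM (0.909% of all symbols). Leaving out each embryo in turn gave 0 to 2 called genes in counts and 0 to 8 in RPKM. The highest counts came without FGF2 8 (4.31% and 4.57% of all genes). Rpl34 lost its call in counts without FGF2 7 or any vehicle embryo. Over these fits the median log2 fold change was 0.20 to 0.35 in counts (large subunit 0.21 to 0.37, small subunit 0.20 to 0.32) and 0.21 to 0.33 in RPKM, and the ratio of summed RPKM was 1.14 to 1.27. The large over small ratio was 1.26 in FGF2 and 1.26 in vehicle embryos without the 3 most abundant genes of each subunit, 1.20 and 1.21 in CPM, and 0.980 and 0.987 without paralogs. Signs reversed for 8 genes, none of them called. Under the block, Rplp0 had 0.10 and Rpsa -0.11. Leaving out each embryo in turn gave log2 fold changes of -0.13 to 0.038 for Rplp0, -0.059 to 0.35 for Rplp1, -0.027 to 0.073 for Rpl3, -0.031 to 0.089 for Rpl7, -0.074 to 0.15 for Rpl7a, -0.041 to 0.18 for Rpl13a, -0.11 to 0.45 for Rps16 and -0.16 to 0.46 for Rpsa, the last negative without vehicle 9. In the fits tried, RLE factors, library totals, halved counts of vehicle 9 and leaving out sex-linked genes changed no count of calls. Leaving out overlapping genes changed none either, but Rpl34, the only gene called in the main fits, overlaps no other listed gene. The cause of these changes was not tested.

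Limits are set by 3 embryos a group, by fixed tissue, and by counting over spans in a family with many near-identical copies, so values of single genes with few own reads are less certain than those of the abundant ones.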

Other observations

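Other short sequences were searched in the same RefSeq promoter windows. GGGCGG on either strand was found in 39 of the 63 matched ribosomal protein genes (61.9%, against 38.2% of all symbols) and TATAAA on the gene strand in 6 of 63 (9.52%, against 9.77%).

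Some ribosomal protein genes stood high in vehicle 9 and not low. Rps16 had 48.2, 53.0 and 63.1 CPM in FGF2 and 40.3, 39.7 and 77.6 CPM in vehicle embryos, a log2 fold change of 0.06. Vehicle 9 exceeded every other embryo for Rps16, Rplp1 and Rps19, which were picked after their values were seen.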
